A study of Mus musculus with 42 samples.

Results

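The cytosolic ribosomal protein genes encode the proteins of the small and large subunits of the ribosome that works outside mitochondria. The members were the symbols of the deposited count table that start with Rps or Rpl followed by a number, together with Rpsa, Rplp0, Rplp1 and Rplp2, leaving out the Rps6k kinases and symbols ending in -ps with an optional number, which mark processed copies. This rule used no measured value and gave 89 of 40701 symbols, 36 for the small subunit and 53 for the large subunit. The table held counts for 42 libraries from the renal cortex of mice labelled as 12 weeks old. Each of 3 kidney states was sampled with 4 male and 3 female libraries: the contralateral kidney, which the labels call healthy, and the kidney 5 or 10 days after surgery to obstruct its ureter. From each state came a proximal tubule fraction (PT), which the protocol describes as RNA released from beads coated with anti-GFP antibodies, and a fraction labelled Total kidney. The kidneys were perfused with cold buffer and the beads were added to a supernatant cleared of mitochondria. The protocol also names an unbound fraction, and the labels do not say whether Total is that fraction. They give no strain, no transgene, no promoter that drives GFP, and no day or animal of origin for the contralateral kidneys. Nothing says that the libraries of a group came from separate animals, so p-values measure the spread between these libraries.

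Ribosomal proteins assemble on ribosomal RNA in the nucleolus and are made in near equal amounts, since each ribosome holds one copy of almost every one. Many of their mRNAs begin with a run of pyrimidines, the 5′ terminal oligopyrimidine (TOP) motif, through which mTORC1 controls their translation. In translating ribosome affinity purification a tagged ribosomal protein, commonly Rpl10a fused to GFP, is made in one cell type and its ribosomes are pulled down with their mRNAs. Levels here therefore stand for mRNA bound to the beads in PT and for mRNA in Total, and not for protein.

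The first bases of the transcripts are shown for some members of a fixed list, because the TOP motif is what these mRNAs are best known to share. Each window covers 10 bases before the RefSeq start site (GRCm38.p6) and the first 20 bases of the transcript, so that the start is base 11, and the capitals mark the longest run of C and T counted within 10 bases on either side of the start, so that a run that goes on past that limit, as in Rpl13a, is marked only up to it.
Rplp2 (chr7:141447641-141447670, plus strand): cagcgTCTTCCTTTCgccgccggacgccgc
Rps6 (chr4:86857348-86857377, minus strand): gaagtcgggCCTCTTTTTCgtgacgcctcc
Rps27 (chr3:90213629-90213658, minus strand): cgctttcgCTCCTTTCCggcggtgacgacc
Rps24 (chr14:24490668-24490697, plus strand): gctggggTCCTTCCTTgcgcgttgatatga
Rpl13a (chr7:45128726-45128755, minus strand): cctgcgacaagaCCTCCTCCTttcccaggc
Rpl22l1 (chr3:28805498-28805527, plus strand): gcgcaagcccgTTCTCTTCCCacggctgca
Rplp0 (chr5:115559457-115559486, plus strand): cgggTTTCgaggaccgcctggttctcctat
Rpl41 (chr10:128549149-128549178, minus strand): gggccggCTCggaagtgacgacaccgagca
Rpl7l1 (chr17:46782637-46782666, minus strand): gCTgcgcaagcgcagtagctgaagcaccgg
The first 6 hold a run of 8 or more bases and are all the members of that list that do. The last 3 do not, and the list's other members with a window, such as Rpl10 and Rpsa, hold shorter runs and are not shown. Rps24 has a second window, not shown, with a longest run of 2. Windows were found for 64 of the 89 members. Of these 64, 22 held a run of 8 or more, 34.4%, against 9.25% of all 27025 genes with a window. A C at the start followed by 4 more pyrimidines was present in 13 of the 64, 20.3%, against 3.01% of genes. Windows follow the annotated start, which was not measured here. At day 5 in PT, 14 of 22 tested members with the run were called higher than contralateral and 24 of 39 with a shorter run, at medians of 0.71 and 0.54 on the log2 scale, and no test of that difference was made.

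Many of these genes have relatives of similar sequence, and a more distant pair and a close pair are shown next. The first pair is the opening of the coding sequences (GENCODE M21) of Rps27, a small subunit protein, and its paralog Rps27l, which are identical at 76.2% of 252 coding bases. The second pair is coding bases 201 to 260 of Rps3a1, the small subunit protein eS1, and the matching stretch of Rps3a3, which GENCODE classes as a processed pseudogene. Rps3a3 differs from the coding sequence of Rps3a1 at 9 of 792 bases. Capitals mark the bases that differ within a pair.
Rps27: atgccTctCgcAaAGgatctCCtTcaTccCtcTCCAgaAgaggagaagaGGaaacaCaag
Rps27l: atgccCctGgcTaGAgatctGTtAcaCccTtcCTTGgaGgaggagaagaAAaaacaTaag
Rps3a1: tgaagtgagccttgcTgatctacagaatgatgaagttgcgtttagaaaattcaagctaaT
Rps3a3: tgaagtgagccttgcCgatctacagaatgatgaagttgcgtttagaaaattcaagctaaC
The 60 bases shown differ at 18 positions in the first pair and at 2 in the second. GENCODE lists 84 members as protein coding and 5 as processed pseudogenes (Rpl6l, Rps12l1, Rps3a2, Rps3a3 and the transcribed Rps4l). The table also holds 250 symbols of -ps copies, and 57 members have at least 1.

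Levels of the members differed widely, and those that share most of their coding sequence with other genes were mostly the lowest. Per length, the mean RPKM over the 42 libraries ran from 0.00166 for Rpl10l, a testis paralog, to 1072 for Rpl8, with a median of 29.9 and quartiles of 4.97 and 107. Rps6, the small subunit protein that S6 kinases phosphorylate, stood at 1.02, Rps27 at 1.88 and Rpl24 at 0.357, whereas Rpl4 stood at 808. Rps27l stood at 348 against the 1.88 of Rps27. Apart from the genes of the fixed list, these examples of level were chosen after their values were seen. Of the 89 members, 66 had at least 75% of their coding 50-mers in transcripts of other genes, and their median RPKM was 16.4. For the members classed as pseudogenes, which have no coding sequence, the whole transcript was used. The 66 include the pseudogenes Rpl6l, Rps12l1 and Rps3a2, at 0.179, 0.0288 and 0.0914 RPKM. The 14 members that shared 25 to 75% had a median of 294 and the 9 that shared less had 69.8, over a range from 0.00166 to 1072 that takes in the testis and muscle paralogs. Spearman's rho between the shared percentage and the mean RPKM was −0.59 over the 89 members, given as a description of genes that share libraries. How the authors treated reads that match several places is not given in the sources used here, so levels and changes of the members with shared sequence are uncertain and a low level is not shown to be a low mRNA level.

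**Figure D1:**
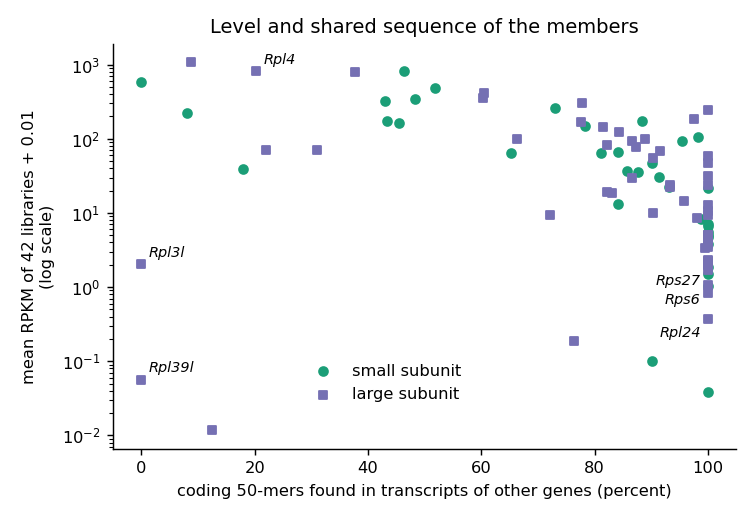
Mean RPKM of each member over 42 libraries (log scale, 0.01 added) against the percentage of its coding 50-mers found in transcripts of other genes. For pseudogenes the whole transcript was used. Circles are small subunit and squares large subunit members. Rps27 (1.88 RPKM), Rps6 (1.02) and Rpl24 (0.357) sit at 100% shared, and Rpl4 (808) sits at 20.3%.

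The members took few of all counts, and their share was higher in every obstructed library than in every contralateral library of its fraction. In contralateral PT they took 0.600% of counts in the lowest library, 0.767% in the median and 1.01% in the highest. At day 5 the PT libraries ran from 1.33% through a median of 1.47% to 1.86%, and at day 10 from 1.17% through 1.41% to 1.57%. The Total libraries ran from 0.808% to 1.01% in contralateral kidneys, from 1.43% to 2.06% at day 5 and from 1.30% to 1.92% at day 10. The contralateral groups did not overlap either obstructed group, while day 5 and day 10 overlapped. A share of counts is on the scale of library size alone, on which the median gene rose too. Medians over all genes tested were 0.52 and 0.49 log2 in PT at day 5 and day 10, beside 1.09 and 0.82 for the members. In Total they were 0.48 and 0.42, beside 0.95 and 0.86. With TMM scaling, complete separation of single members was near or below the share over all genes, as given below. Male contralateral PT number 2 stood apart from the other 3 males of its group, at 1.01% against 0.600% to 0.641%. Counts below are given for all libraries. Without that one, the members called higher and lower were 55 and 1 in PT at day 5, 41 and 1 in PT at day 10, and for PT against Total 4 and 5 in contralateral kidneys, 14 and 2 at day 5 and 7 and 5 at day 10. Depth ran from 9307188 to 43640760 counts per library.

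**Figure D2:**
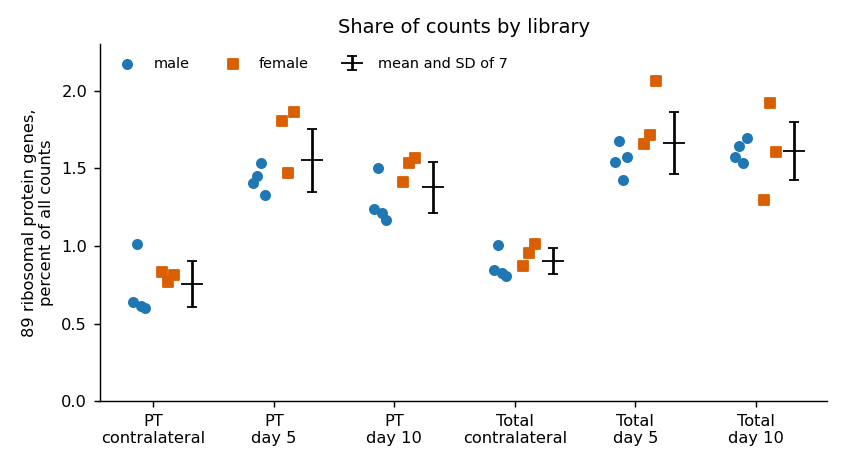
Percent of all counts taken by the 89 members in each library; circles are male and squares female libraries, and the black bar is the mean and SD of 7 libraries. Contralateral libraries end at 1.01% in both fractions, below the lowest obstructed library at 1.17%. No baseline over other genes is drawn, and on this scale the median gene rose too.

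Day 5 and day 10 of obstruction were compared with the contralateral kidney to ask how the proximal tubule's bound mRNAs change in this model of fibrosis. Most tested members were higher in PT at day 5: 52 of 83 were called higher and 1 lower (edgeR's quasi-likelihood test, Benjamini-Hochberg adjusted p under 0.05 over all 14932 genes tested). Over all genes tested the same rule called 28.4% higher and 25.2% lower, so the members held a larger share of rises and a smaller share of falls than genes at large. The median change of the members was 0.61 on the log2 scale, beside 0.05 for all genes. At day 10, 36 of 83 were higher and 1 lower, with 29.7% of all genes higher and 25.2% lower, and the median was 0.41. In Total, 45 of 84 were higher and 1 lower at day 5, where 30.5% of genes were higher and 28.3% lower, and 46 of 84 were higher and 1 lower at day 10, where 32.1% and 28.3% were. The Total medians were 0.50 and 0.51. Of the 83 members tested in all 4 comparisons, 29 (34.9%) were called higher in all 4 and 24 (28.9%) in none, where 19.4% and 61.8% of the 14730 genes tested in all 4 were. Both comparisons of a fraction share its contralateral libraries.

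With TMM scaling most changes were under 2-fold, and rises of 2-fold or more were a smaller share of the members than of all genes. That order turned round with library size alone and with limma on log2(RPKM + 1), as given below. The rule that adds a 2-fold minimum left 12 members higher (14.5% of those tested) and 1 lower in PT at day 5, where it left 18.2% of all genes higher and 12.4% lower. At day 10 in PT it left 2 higher (2.41%) and 1 lower, beside 19.7% and 12% of genes. In Total it left 8 and 1 at day 5, beside 19.2% and 13.3%, and 4 and 1 at day 10, beside 20.9% and 13.8%. All 7 obstructed libraries lay above all 7 contralateral ones for 15 members in PT at day 5 (14.0% of all genes), 5 at day 10 (13.9%), and 13 and 13 in Total (16% and 16.1%). For day 5 in PT and both Total comparisons these are 18.1%, 15.5% and 15.5% of the members tested, near the share over all genes, and for day 10 in PT 6.02%, below it. Scaling set the size of these counts, while rises outnumbered falls under each one. With library size alone in place of TMM factors, 75 of 83 members were higher and 0 lower in PT at day 5, 60 higher and 1 lower at day 10, 73 and 1 of 84 in Total at day 5, and 65 and 1 at day 10. All genes moved the same way: with library size alone 48.4%, 47.3%, 49.6% and 46.8% of them were called higher in these comparisons and 12.2%, 12.9%, 14.5% and 17.4% lower. The 2-fold rule then left 44 members higher in PT at day 5 (53%, beside 28.9% of genes), 26 at day 10 (31.3% beside 28.7%), and 33 and 31 in Total (39.3% and 36.9%, beside 28.7% and 28.1%). With limma on log2(RPKM + 1) it left 41, 21, 28 and 23 members higher (49.4%, 25.3%, 33.3% and 27.4%), beside 11.7%, 11.3%, 11.9% and 11.9% of genes. The added 1 shrinks changes of genes at low RPKM, so these shares are not on a like footing. RLE size factors left the medians near those with TMM, at 0.61, 0.41, 0.51 and 0.51 for the members and 0.05, 0.05, 0.05 and 0.06 for all genes. Counts by the 2-fold rule with RLE are not given. Library size scaling moved the median of all genes by 0.47, 0.44, 0.44 and 0.36 in the same order, and the members' medians stayed 0.56, 0.34, 0.47 and 0.45 above it.

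**Figure D3:**
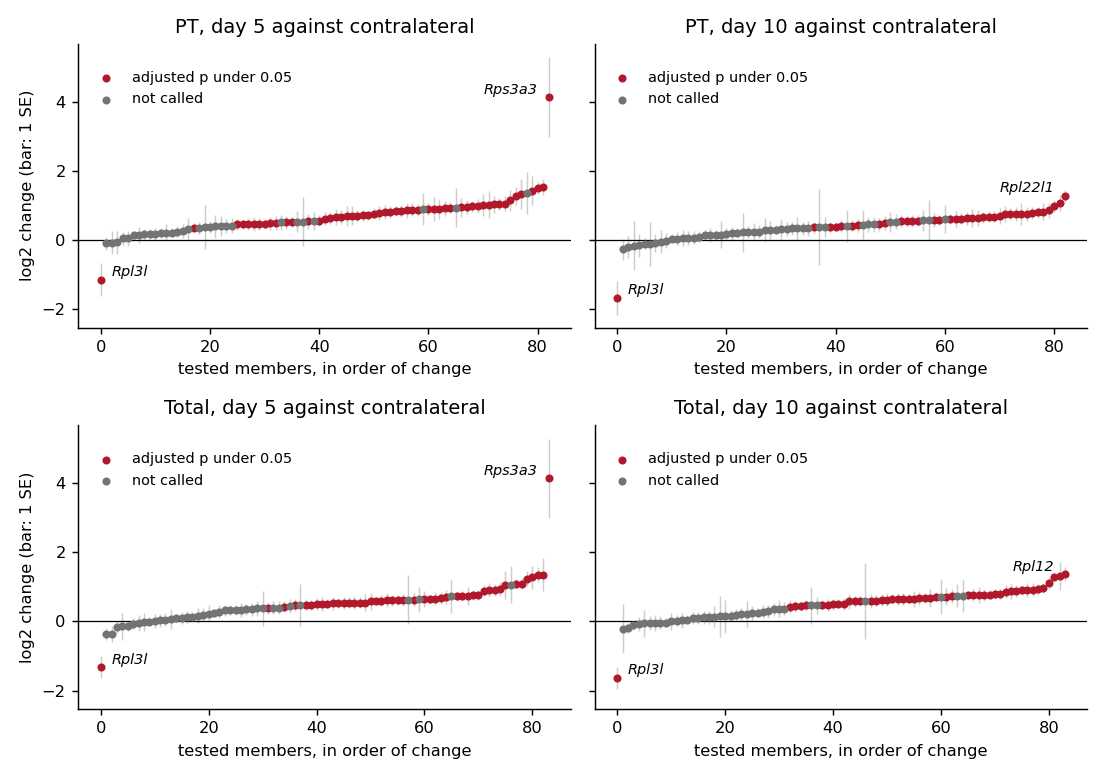
Log2 change of each tested member against contralateral, in order of size, for PT and Total at day 5 and day 10; bars are 1 standard error and red points passed the adjusted threshold. Nearly all red points lie above 0, Rpl3l is the 1 called fall in each panel, and Rps3a3 stands apart at day 5, at 4.13 in PT and 4.14 in Total.

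Small subunit genes made up 26 of the called rises in PT at day 5, out of 34 tested, at a median of 0.80. Rps24, a small subunit protein, ran from 55.4 through 63.7 to 120 CPM in contralateral PT and from 94.5 through 138 to 188 at day 5. Its groups overlapped through the contralateral libraries of male number 2, at 120, and female number 3, at 108, and the change was 0.85 ± 0.18 (SE, n = 7 and 7, adjusted p = 0.00036). Rps4x, the X-linked eS4, went from 42.7 to 62.4 CPM in contralateral PT to 66.9 to 120 at day 5, with no overlap, a change of 0.71 ± 0.17 (adjusted p = 0.0012). Rps4l, classed as a transcribed processed pseudogene, was higher by 1.15 ± 0.31 in PT at day 5 (adjusted p = 0.0043) and 1.23 ± 0.21 in Total (adjusted p = 3.5e-05). Rpsa, which is also known as the laminin receptor, was called only at day 5 in PT, by 0.48 ± 0.20 (adjusted p = 0.045), and its libraries of 7.98 to 19.1 CPM overlapped those of 11.1 to 29.0. That call was lost without female day 5 PT number 3 (0.37). Rps6 ran from 0.632 to 2.44 CPM in contralateral PT and from 0.615 to 2.51 at day 5 and was not called there, with 0.40 ± 0.33. In Total Rps6 was higher by 0.73 ± 0.25 at day 5 (adjusted p = 0.017), on 0.672 to 3.32 CPM over both groups, and the call was lost without female contralateral Total number 1 (0.62).

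Large subunit genes made up the other 26 rises in PT at day 5, out of 49 tested, at a median of 0.51. Rpl22l1, the paralog of Rpl22, had the lowest adjusted p of all members in each of the 4 obstruction comparisons. It stood at 19.1, 25.1 and 42.8 CPM (lowest, median and highest library) in contralateral PT, at 58.3, 72.7 and 97.9 at day 5 and at 47.6, 67.9 and 80.2 at day 10. Neither obstructed group overlapped the contralateral one, and the changes were 1.51 ± 0.19 (adjusted p = 8.6e-07) and 1.27 ± 0.18 (adjusted p = 6.2e-06). In Total Rpl22l1 was higher by 1.09 ± 0.13 and 1.29 ± 0.13. Rpl22 itself was higher by 0.91 ± 0.18 in PT at day 5 (adjusted p = 0.00025), on contralateral libraries of 89.2 to 219 CPM and day 5 libraries of 186 to 352. Rpl10a, the protein usually tagged in this method, went from 2.34 to 6.35 CPM in contralateral PT to 6.15 to 12.3 at day 5, a change of 1.06 ± 0.22 (adjusted p = 0.00038). The groups overlapped, since female contralateral number 1 at 6.35 lay above male day 5 numbers 2, 3 and 4 at 6.15 to 6.18. Counts of Rpl10a cannot be split into a tagged and a native transcript. Rpl12, which binds beside the stalk, rose by 1.54 ± 0.23 from low levels, 1.24 to 2.93 CPM against 3.47 to 7.17. Rpl7 rose by 1.04 ± 0.18 at day 5 and 0.98 ± 0.18 at day 10 in PT, from 256 to 345 CPM to 451 to 937 and 380 to 786, without overlap.

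The stalk proteins, which recruit the elongation factors, rose together in both fractions at both times. Rplp1 ran from 82.4 to 171 CPM in contralateral PT and from 183 to 330 at day 5, with no overlap, a change of 0.93 ± 0.16 (adjusted p = 4.0e-05). Rplp2 changed by 0.72 ± 0.13 and Rplp0, which anchors both, by 0.67 ± 0.23 (adjusted p = 0.018) in PT at day 5. At day 10 the 3 stalk genes were higher in PT by 0.66 ± 0.16, 0.58 ± 0.13 and 0.65 ± 0.23. The call of Rplp0 was lost in PT at day 5 without female day 5 number 3 (0.47), in PT at day 10 without female day 10 number 3 (0.56) and in Total at day 10 without female day 10 number 2 (0.35). Rpl41, the smallest of the proteins, was not called in PT (0.56 ± 0.26 at day 5), where 6 contralateral libraries ran from 142 to 319 CPM and male number 2 stood at 535. In Total at day 5 it was called higher by 0.50 ± 0.20 (adjusted p = 0.033), a call lost without female day 5 Total number 3 (0.22). Rpl13a, known for a role in interferon-gamma responses, rose by 0.53 ± 0.15 and 0.55 ± 0.15 in PT. Rpl39 rose by 1.00 ± 0.32 in PT at day 5 (adjusted p = 0.012) and Rpl10 by 0.57 ± 0.20 at day 10 (adjusted p = 0.022, and not called without female contralateral number 1, at 0.51), while Rpl36a was not called (0.36 ± 0.18 and 0.17 ± 0.18). The testis paralogs were near 0: Rpl10l reached at most 0.0604 CPM and Rpl39l at most 0.305 in any library, and neither was tested.

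Rpl3l, the paralog of Rpl3 found mainly in skeletal and heart muscle, was the only member called lower with obstruction and the only one called between the sexes. In contralateral PT the 4 male libraries held 16.7, 9.30, 17.5 and 11.3 CPM and the 3 female libraries 2.26, 0.198 and 0.506. Every male library was above every female one, a difference of −3.87 ± 0.71 for females against males (adjusted p = 0.0015), in a comparison where 5.02% of all genes were called and Rpl3l was the 1 member. At day 5 the male PT libraries held 4.13, 1.67, 2.32 and 3.19 CPM and the female ones 1.04, 0.384 and 1.4. The changes with obstruction were −1.14 ± 0.47 at day 5 and −1.66 ± 0.49 at day 10 in PT, and −1.33 ± 0.31 and −1.63 ± 0.32 in Total (adjusted p = 0.046, 0.0071, 0.00091 and 0.00013). The PT calls were lost without female contralateral number 1, at −0.44 and −0.96, and the day 5 call also with library size scaling (−0.70) and with either other filter on low counts (−1.13 with none, −1.10 with the stricter one). None of its coding 50-mers was shared with another gene. The day 5 change of females minus that of males was called for 0 of 83 members, beside 0.502% of all genes. Of the members, 13 passed at an unadjusted p under 0.05, all in the direction of a larger rise in females. The median of all tested members was 0.27, beside 0.01 for all genes. No share of all genes at an unadjusted p is given here, so the 13 have no baseline. The day 10 difference was called for 0 members, with 0 at an unadjusted p, while 0.208% of all genes were called. DESeq2 called 0 in both.

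At day 10 against day 5, 0 members passed in PT and 0 in Total, where the rule called 0.502% and 0.62% of all genes in either direction. At an unadjusted p under 0.05 there were 7 in PT, 6 of them lower at day 10, and 4 in Total, and DESeq2 called 1 and 3. The share of all genes at an unadjusted p is not given, so those counts have no baseline. The median was −0.23 in PT, beside 0.03 for all genes, and 0.02 in Total.

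In 5 members the level followed the number in the library's label. A search of all 40701 symbols for genes whose 4 contralateral and day 10 libraries of one sex and number (PT and Total) lay at least 4-fold above or below the other 24 such libraries, with 0.5 CPM added, returned 6 genes. They were Rps3a3, Rps2, Rps18, Rpl29, Rpl3 and the immunoglobulin gene Ighg1, and the search was made after these values were seen. Rps3a3 (chr13:108670603-108671397) was at 91.3 and 67.6 CPM in contralateral PT and Total of female number 1 and at 149 and 134 at day 10, and at 0.832 to 3.21 in the other 24. Rps2 (chr17:24718116-24721929) was at 2.11 and 2.67 CPM in female number 2 and at 2.11 and 3.12 at day 10, against 33.7 to 254 elsewhere. In the same 4 libraries Rps18 (chr17:33951999-33956001) was at 3.50 to 6.38 CPM, against 28.7 to 134. Rpl29 (chr9:106429454-106431568) was at 1.01 to 1.91 CPM in female number 3, against 17.7 to 81.2. Rpl3 (chr15:80077791-80091868) was at 1.33 to 3.29 CPM in male number 3, against 26 to 59.1. Coordinates are the gene spans of GENCODE M21 on GRCm38.

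The low levels were not seen in the day 5 libraries of the same sex and number, and for Rps3a3 female number 1 was high at day 5 too, at 136 and 150 CPM, as most day 5 libraries were. At day 5 female number 2 had 105 and 200 CPM of Rps2, female number 3 had 90.6 and 80.1 of Rpl29, and male number 3 had 46.9 and 44.9 of Rpl3, none of them low. Rps3a3 was high in 6 of 7 day 5 libraries of each fraction, at 89.9 to 212 CPM, and at 1.06 and 1.08 in male number 4. Its called rise at day 5, 4.13 ± 1.17 in PT and 4.14 ± 1.14 in Total (adjusted p = 0.0063 and 0.0056), is thus a difference in how many libraries were high, 6 against 1. Where Rps3a3 was high it made 44.3% to 54.1% of the sum of Rps3a1 and Rps3a3, and elsewhere 0.292% to 1.92%. The sum itself ran from 113 to 178 CPM in contralateral PT, from 195 to 406 at day 5 and from 153 to 297 at day 10. Rps3a1 alone was not called at day 5 (0.14 ± 0.23) and was at day 10 (0.71 ± 0.23, adjusted p = 0.014).

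Other members moved in part with the number, named here after their values were seen. Rpl30 was at 7.76 to 12.2 CPM in the contralateral and at 9.76 to 15.3 in the day 10 libraries of males 2 and 3, and at 27.3 or more in all others. Its called rise at day 5 was 1.43 ± 0.41 in PT (adjusted p = 0.0064), while day 10 gave 0.60 ± 0.40. Among contralateral and day 10 libraries, Rpl35a was at 6.04 to 15.3 CPM in male number 3 and at 32.3 or more elsewhere. Rps28 was at 1.06 to 4.43 CPM in female number 2, a range that other libraries reached from 3.02 up. The processed copy Rpl3-ps1 was at 3.03 to 4.61 CPM in male and female number 1 and at 21.8 to 66.8 in the other contralateral and day 10 libraries, and at 2.87 to 9.39 in all 14 day 5 libraries. Highest over lowest library exceeded 8-fold for 6 of the 65 members at 5 CPM or more in contralateral PT, while 3.09% of genes at that level did so. At day 10 it did for 6 of 70, beside 2.41%. These ranges pool both sexes, and the 6 in contralateral PT include Rpl3l, which was called between the sexes there. Without the 9 members Rps3a1, Rps3a3, Rps2, Rps18, Rps28, Rpl29, Rpl3, Rpl30 and Rpl35a, 48 of 74 were higher in PT at day 5, 35 at day 10, and 42 and 45 of 75 in Total. What the number stands for was not tested. The labels do not say that contralateral and day 10 libraries of one number share an animal. Over all genes, day 10 libraries deviated most like the contralateral library of their own number in 4 of 7 cases in PT and 7 of 7 in Total. Day 5 libraries did so in 2 and 3 of 7. If day 5 and contralateral libraries came from different animals, differences between animals and obstruction cannot be told apart in the day 5 comparisons.

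**Figure D4:**
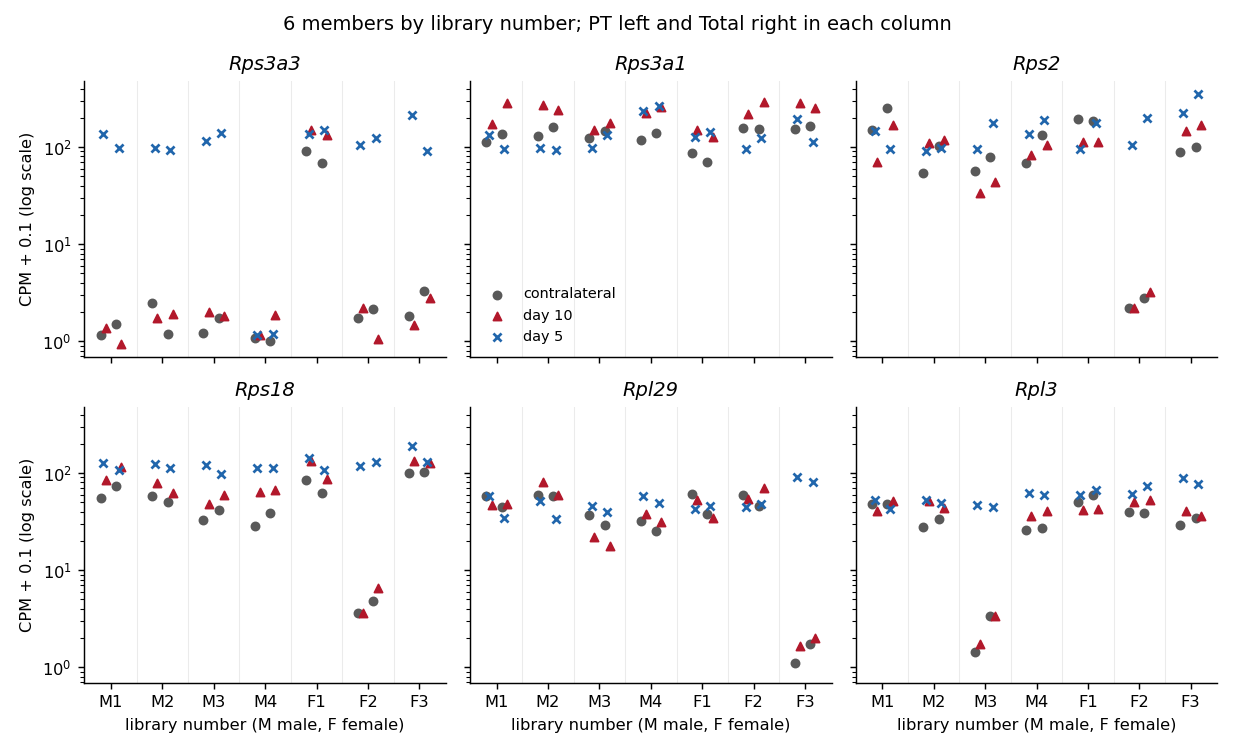
CPM (log scale, 0.1 added) of 6 members by library number, with M for male and F for female; grey circles are contralateral, red triangles day 10 and blue crosses day 5 libraries, PT to the left and Total to the right in each column. Grey and red symbols lie far below the rest for Rps2 in F2 (2.11 to 3.12 CPM) and Rpl29 in F3 (1.01 to 1.91), and the blue symbols of those numbers do not.

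PT was compared with Total in each state to ask which members the beads held more or less of. Few members differed, and which way they leaned depended on the scaling. In contralateral kidneys 6 of 84 members were higher in PT and 4 lower, where the rule called 16.6% of all genes higher and 30.0% lower. At day 5 there were 9 higher and 2 lower (22.6% and 30.9% of genes) and at day 10 there were 6 higher and 3 lower (28.4% and 30.6%). With library size alone the counts became 1 higher and 25 lower, 3 and 9, and 2 and 23. Called genes also leaned lower: 8.71%, 20.4% and 28.2% of them were then higher in PT, against 35.6%, 42.3% and 48.2% with TMM. These are shares of called genes and not of genes tested. Called members leaned lower more strongly than called genes in contralateral kidneys (1 and 25) and at day 10 (2 and 23), and not at day 5 (3 and 9). The medians with library size alone were −0.28, −0.11 and −0.29 for the members and −0.38, −0.25 and −0.22 for all genes. RLE size factors gave 3 higher and 8 lower at day 10. With TMM the medians of the members were 0.01, 0.15 and −0.02, and those of all genes −0.07, 0.01 and 0.05. At day 5, leaving out any of 15 libraries raised the count by over 1.5 times, up to 26 higher and 0 lower without female day 5 Total number 3. At day 10, leaving out female day 10 Total number 2 gave 15 and 2.

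Of the members, 4 were called higher in PT in all 3 states: Rpl7l1, Rps27l, Rpl36al and Rps27a, which encodes ubiquitin fused to a ribosomal protein. Rpl7l1, a Rpl7-like protein, stood at 161 to 247 CPM in contralateral PT and 110 to 158 in Total, with no overlap and a difference of 0.76 ± 0.13 (adjusted p = 4.9e-06). The differences of Rpl7l1 at day 5 and day 10 were 0.88 ± 0.13 and 1.06 ± 0.13, and it passed with every scaling. Rps27l was higher in PT by 0.51 ± 0.15, 0.83 ± 0.15 and 0.64 ± 0.15 and Rpl36al by 0.55 ± 0.14, 0.87 ± 0.14 and 0.66 ± 0.14. Calls for Rps27l and Rpl36al in contralateral kidneys, and for Rps27l at day 10, were lost with library size alone (0.23, 0.27 and 0.37). Rpl7l1, Rps27l and Rpl36al were not called with obstruction in either fraction, with PT changes at day 5 of 0.13 ± 0.13, 0.16 ± 0.16 and 0.22 ± 0.13. Rps27a, by contrast, was higher by 0.46 ± 0.13 there (adjusted p = 0.0056). Rplp0 differed by −0.61 ± 0.20 in contralateral kidneys and −0.51 ± 0.20 at day 5 (adjusted p = 0.011 and 0.031), where the day 5 call was lost without female day 5 PT number 2 (−0.24), and Rpl31 by −0.70 ± 0.20 in contralateral kidneys. These are not the largest falls: in each state 1 member was called lower in PT by 2-fold or more. In contralateral kidneys that member was neither Rplp0 nor Rpl31. The change in PT minus that in Total was called for 0 of 84 members at day 5 and 0 at day 10, with 0 at an unadjusted p under 0.05 in both and 0 in DESeq2, while the rule called 5.31% and 8.27% of all genes.

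Genes that work beside the ribosomal proteins were counted from fixed lists, and several of these counts lay near the 28.4% higher and 25.2% lower of all genes in PT at day 5. Among 18 elongation and other TOP mRNAs, 9 rose and 0 fell in PT at day 5 and 10 rose at day 10, Npm1, a nucleolar chaperone, by 1.19 ± 0.12 at day 5. Of 32 ribosome assembly factors 14 rose and 1 fell at day 5, led by Gar1 (1.65 ± 0.23), a box H/ACA particle protein, with Utp20 at −1.16 ± 0.23. RNA polymerase I genes gave 4 rises and 0 falls of 12, and hosts of small nucleolar RNAs 5 and 0 of 11, Snhg5 by 1.84 ± 0.20. Of 23 initiation factors 6 rose, Eif6, which keeps the subunits apart, by 1.82 ± 0.23, and 3 fell, Eif4g1, the scaffold of the cap-binding complex, to −0.68 ± 0.17. Among 18 genes listed under mTORC1 and TOP translation control 4 rose and 5 fell, with Mtor at −1.37 ± 0.16. That list also holds Myc, a transcription factor and not a part of mTORC1, which was higher by 3.85 ± 0.44. Gnb2l1 (Rack1), a ribosomal protein outside the symbol rule, rose by 0.85 ± 0.17, while Fau, made as a fusion with a ubiquitin-like protein, was not called (−0.25 ± 0.17). Of 70 tested -ps copies 12 were higher and 2 lower, a smaller share than of all genes in both directions. The shares of initiation factors, RNA polymerase I and mTORC1 genes that rose were near that of all genes or below it.

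Mitochondrial ribosomal proteins went the other way with TMM scaling: 5 rose and 35 fell of 74 in PT at day 5, at a median of −0.39, and 2 rose and 51 fell in Total. Mrpl18 was at −1.03 ± 0.20 and Mrps36 at −1.16 ± 0.17 in PT. With library size alone the mitochondrial count in PT turned to 17 rises and 10 falls at a median of 0.08. On that scale 48.4% of all genes were higher and 12.2% lower, at a median of 0.52. The sign of that list's median thus depended on the scaling, while it stayed below that of all genes and below the members' 1.09. In contralateral kidneys 57 of 75 mitochondrial ribosomal proteins were higher in PT than in Total and 1 lower, and 22 and 3 with library size alone. There 16.6% of all genes were higher and 30.0% lower with TMM. With library size alone 8.71% of called genes were higher, which is a share of calls and not of genes tested.

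**Figure D5:**
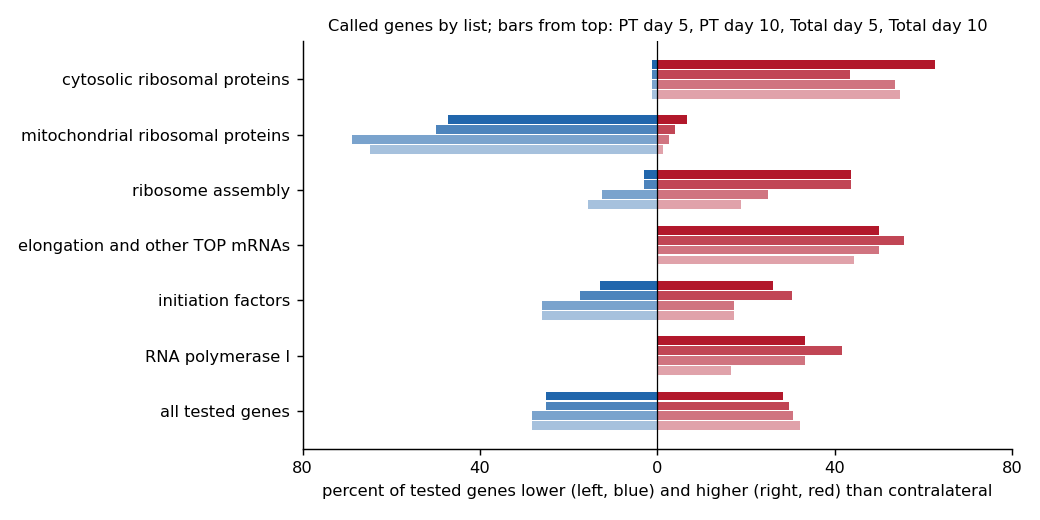
Percent of tested genes of each list called lower (blue, left) and higher (red, right) than contralateral; the 4 bars of a list are, from the top, PT day 5, PT day 10, Total day 5 and Total day 10. Cytosolic ribosomal proteins have 52 of 83 higher and 1 lower in PT at day 5, and mitochondrial ones 5 of 74 higher and 35 lower. With library size alone the mitochondrial counts were 17 higher and 10 lower, where 48.4% of all genes were higher and 12.2% lower.

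Markers of other cells moved with obstruction beside these changes, some up and some down. The summed level of 10 proximal tubule markers had a median of 12888 CPM in contralateral PT and 9155 in Total, and of 2292 and 1019 at day 5. Summed macrophage markers (10 genes) ran from 10.5 to 16.3 CPM in contralateral PT, from 109 to 192 at day 5 and from 152 to 361 at day 10, and in Total from 67.0 to 153, from 678 to 1533 and from 1199 to 2304. Summed fibroblast markers (10 genes) were at most 10.8 CPM in contralateral PT, at least 33.0 at day 5 and at least 51.8 at day 10. Summed lymphocyte markers (10 genes) ran from 0.167 to 0.499 CPM in contralateral PT, with 4 at 0 in all its libraries. They ran from 3.70 to 8.87 at day 5 and from 3.81 to 9.55 at day 10, and had medians of 5.76, 33.8 and 47.8 in Total. Loop and distal tubule markers (8 genes) fell, with medians of 3677, 972 and 890 CPM in Total and 157, 63.7 and 83.9 in PT. Collecting duct markers (8 genes) fell too, at 576, 208 and 159 in Total and 82.1, 17.6 and 19.9 in PT. Podocyte markers (6 genes) had 135, 126 and 118 in Total and 35.2, 48.2 and 65.6 in PT. Endothelial markers (10 genes) had 239, 300 and 342 in Total. Genes of the mitochondrial genome took a median of 3.38% of counts in contralateral Total, 1.43% at day 5 and 1.78% at day 10, and 0.0204%, 0.0124% and 0.0103% in PT. The median of Lars2, which varied widely between libraries, was 7389, 9002 and 27498 CPM in Total and 9350, 3884 and 19832 in PT, in the same order. No gene of the proximal tubule, macrophage and fibroblast lists was at 0 in every library of a group. The part of these values in the members' changes was not tested, and in bulk samples fewer cells of a type and less RNA per cell cannot be told apart.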

How the data were processed

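RNA from 42 libraries was measured by sequencing. The deposited count table holds raw counts per symbol, made by the authors with STAR 2.0.4b and featureCounts 1.4.5 of the Subread package, per the submitters' processing notes, and the authors also deposited RPKM values of the same symbols. The genome build, annotation and treatment of reads with several matches are not given in the sources used here. Counts were fitted with edgeR 4.0.16 (R 4.3.3): TMM factors, filterByExpr, robust quasi-likelihood, one mean per sex, state and fraction, sexes weighted equally, and Benjamini-Hochberg adjustment over all genes tested, 83 members in PT fits and 84 in Total and joint fits. The standard error is the log2 change divided by the root of F. PT, Total and all libraries were fitted apart for 14 comparisons, with a call at an adjusted p under 0.05. CPM uses TMM-scaled library sizes. Alternatives were RLE factors, library size alone, no filter, 5 CPM in 3 libraries, DESeq2 1.42.0, limma 3.58.1 on log2(RPKM + 1), a replicate block, a Lars2 covariate (a gene whose level varied widely between libraries) and each library left out. Scripts were tested on simulated data. No 2 libraries of a group agreed within sampling noise.

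Named genes were 25 members fixed by a list, the 3 largest called rises and falls per comparison among members at 5 CPM or more in a group, and up to 3 per list by the same rule. Others are said to be chosen after their values were seen, apart from examples of level and annotation. Members and lists were chosen with earlier results of these data known. Same-numbered samples deviated together (every r over 0.1) for day 10 with contralateral Total (0.15 to 0.36), contralateral PT with Total (0.29 to 0.44) and day 10 PT with Total (0.19 to 0.68), so the numbers were taken to pair samples there, from the data and not the labels.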

Additional observations from a re-analysis of the deposited data

Results flagged for a closer look

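In the groups of 4 male libraries, 18 values lay far from the other 3 by Dixon's criterion, out of 174 groups examined over 29 measures (the members' share of counts and single members). Chance flags about 1 in 20 groups. Of the 18, 10 were in contralateral PT, and in 9 of those male number 2 was the highest of its group. That library took 1.01% of counts for the members against at most 0.641% in the other 3. It held 5.68 CPM of Rpl10a, 2.44 of Rps6, 535 of Rpl41, 120 of Rps24, 506 of Rps27l, 219 of Rpl22, 60.5 of Rpl39 and 2.36 of Rps3a3, where the highest of the others were 4.05, 1.30, 160, 62.4, 295, 102, 20.8 and 1.11. Male contralateral Total number 2 was also high for Rpl22, at 150 CPM against at most 120. Without contralateral PT number 2, 55 members were higher and 1 lower in PT at day 5 and 41 and 1 at day 10.

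The remaining values were spread over other groups. Male contralateral PT number 1 held 150 CPM of Rps2, and the others at most 67.6. Male day 5 PT number 1 was high for Rpl10a (8.02 CPM) and Rpl36a (7.03 CPM). Male day 10 PT number 2 was low for Rps27l (313 CPM). Male day 10 Total number 3 was low for Rps24 (128 CPM) and high for Rpl7l1 (163 CPM), and number 1 was low for Rps3a3 (0.832 CPM) and high for Rps18 (114 CPM).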

How the results depend on the processing

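Of 140 counts of called members under an alternative (14 comparisons), 122 stayed within 1.5 times the main count. With library size alone the count was 61 in PT at day 10 (main 37), 74 in Total at day 5 (46), 26 for PT against Total in contralateral kidneys (10) and 25 at day 10 (9). With limma on log2(RPKM + 1) these were 65, 72, 26 and 26, and 1 member passed for the day 5 sex difference (0). DESeq2 called 1 in PT at day 10 against day 5 (0), 3 in Total (0) and 2 between the sexes in contralateral PT (1). The replicate block changed few calls: 1 member, Rps3a3, passed in PT at day 10 against day 5, and where the numbers pair the samples 50 members were called in Total at day 10, 11 for PT against Total in contralateral kidneys and 11 at day 10. The block spanned all libraries of a fit, also day 5 ones, whose numbers were not taken to pair with other states. These counts are thus not tests of the paired samples alone, and the main tests used no pairing. Leaving out each library in turn gave 41 to 56 in PT at day 5, 28 to 42 at day 10, 38 to 53 and 40 to 54 in Total, 0 to 1 in PT at day 10 against day 5 (1 without female day 10 number 1) and 0 to 2 in Total (1 without male day 5 number 4 and 2 without female day 10 number 1), 8 to 14, 9 to 26 and 7 to 17 for PT against Total, and 1 to 2 between the sexes (2 without male number 2). At day 5 PT against Total the 15 libraries that moved the count were, in Total, males 1 (18) and 2 (21) and female 3 (26) at day 5, males 2 and 4 (20 each) and females 1 and 2 (21 each) and 3 (20) at day 10, and in PT, male 2 (18) and females 1 (18) and 2 (24) at day 5 and males 1 and 3 (20 each), female 2 (21) and female 3 (20) at day 10. The block also called Rpl41 in PT at day 5, where the numbers do not pair the samples, and Rpl30, Rpl38 and Rps28 in Total at day 10, Rplp2 for PT against Total in contralateral kidneys and Rps24 and Rps27 at day 10. For 74 called changes of named members, 588 alternative values apart from leaving out a library kept the direction, 560 of them past the threshold and 28 not. Depth limits members under 1 CPM, such as Rps27, to few reads.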
